A study of Rattus norvegicus with 8 samples.

Results

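Complement RNA was examined in rat oligodendrocyte progenitor cell (OPC) cultures given IL-4. The genes were C1qa, C1qb, C1qc, C1r, C1s, C3, Cfb, C3ar1 and C5ar1, taken by name. No cut-off on measured values was used, but earlier results of these data were known when the genes were chosen. A probe set of the array's table whose single symbol was the gene's own was found for 8 of these 9 genes, 1 probe set per gene, out of 23188 probe sets in all. Cfb, which encodes factor B, had none and was not analysed here. Cultures treated with IL-4 at 20 ng/mL over 3 d (n = 4 arrays) were compared with cultures treated with PBS over the same time (n = 4 arrays). All 8 samples were primary OPC cultures from brains of Sprague Dawley rat pups of both sexes at postnatal day 1 to 2, grown as mixed glia, shaken to remove microglia and then shaken off the astrocyte layer into serum-free medium. The methods state 4 biologic replicates per condition, and the labels do not say which samples came from separate cultures. Over all probe sets the median SD was 0.15 log2 units among the IL-4 arrays and 0.22 among the PBS arrays. Errors and p-values measure only the spread between these arrays, which may be technical.

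Complement is a cascade of blood and tissue proteins that marks particles for removal. C1q, built from an A, a B and a C chain, recognizes targets, and the proteases C1r and C1s that it carries then start the classical pathway, which leads to cleavage of C3. Factor B belongs to the alternative pathway, and C3ar1 and C5ar1 are receptors for the small fragments C3a and C5a. In brain, C1q is known chiefly as a product of microglia, and C1q and C3 are known for tagging synapses for removal.

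The values are log2 signals per probe set, made by the authors with RMA, which corrects for background and puts the arrays on a common scale, so that a difference of 1 is a 2-fold change. Array medians lay between 6.13 and 6.16. A gene is said to have risen or fallen where limma gave an adjusted p under 0.05 over all 23188 probe sets. Each probe set has its own sensitivity, so levels of different genes were not ranked, and a level was set against other genes only to say whether it lay in the dim range. Genes of the oligodendrocyte lineage were measured, with the mean of 7 OPC genes between 14.38 and 14.45 on IL-4 arrays and between 14.18 and 14.71 on PBS arrays. Some of these genes (Olig1, Olig2 and Sox10) are used throughout the lineage, and the mean of 5 genes of mature oligodendrocytes lay between 17.78 and 17.85 on IL-4 arrays and between 16.88 and 17.69 on PBS arrays, so that the markers do not set OPCs apart from maturing cells. Microglial markers were also measured, with the mean of 18 genes between 9.46 and 9.58 on IL-4 arrays and between 8.86 and 10.24 on PBS arrays. The highest of these values, 10.24, was that of PBS array 4, and the other PBS arrays reached at most 9.10. Astrocyte markers were measured too, with the mean of 8 genes between 9.26 and 9.49 on IL-4 arrays and between 9.19 and 9.64 on PBS arrays. In whole-culture RNA, more cells of a type and more RNA per cell cannot be told apart. Olfactory receptor genes, which serve as a guide to the dim range, had a median level of 4.05 and a 95th percentile of 5.41 over 1057 genes, a guide chosen after the values were seen.

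Of the 8 measured genes, 5 rose with IL-4 (C1qa, C1qb, C1qc, C3ar1 and C5ar1), C1r fell, and C1s and C3 did not pass the test. Among all probe sets 11.97% rose and 19.7% fell. The 3 C1q chains and C3ar1 also passed the threshold of more than 2-fold, which 2.16% of all probe sets passed on the higher side. All 4 IL-4 arrays lay above all 4 PBS arrays for the 3 C1q chains and C5ar1, as they did for 12.2% of all probe sets. They lay wholly below for C1r, as they did for 20.6%. The median log2 difference of the 8 genes was 1.10, and that of all probe sets was -0.068.

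**Figure D1:**
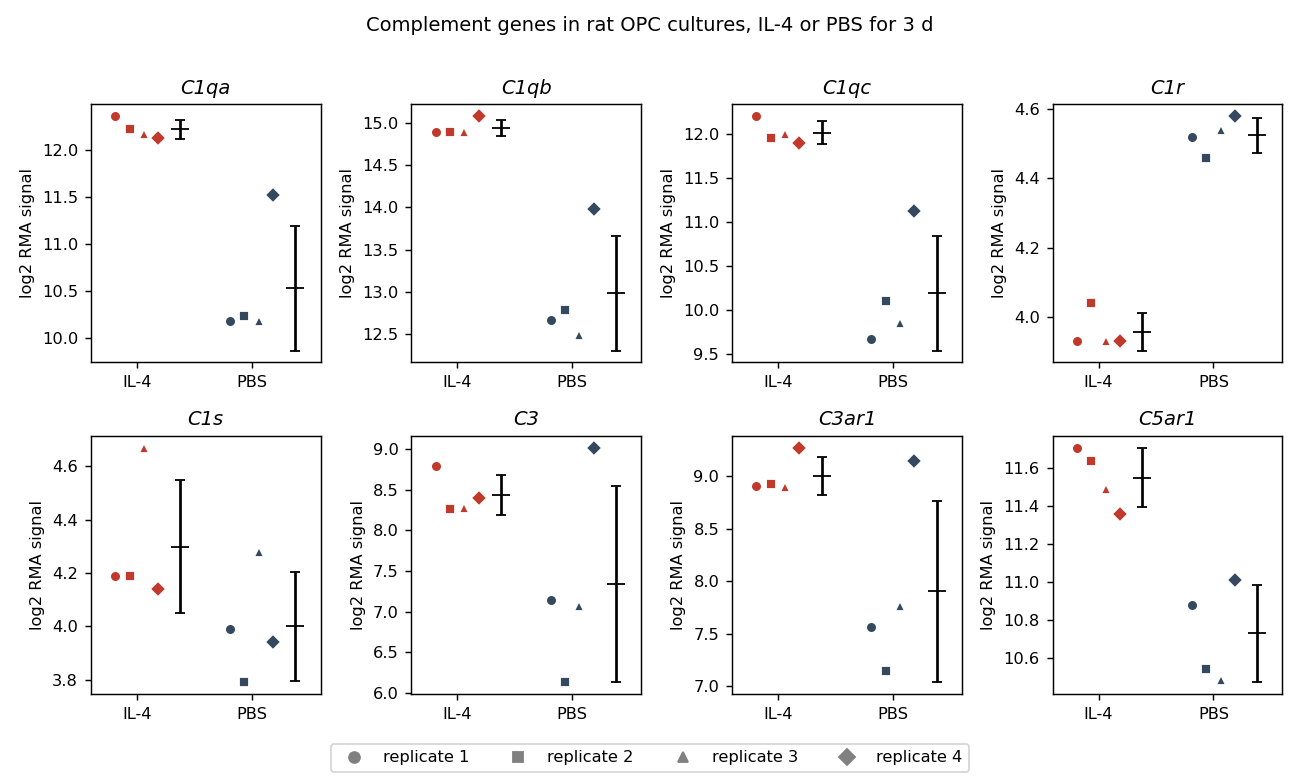
Log2 RMA signal (y axis) of the 8 measured complement genes on each IL-4 array (red) and each PBS array (dark), with the mean and SD of each group in black and a marker shape for each replicate. The IL-4 arrays lie above every PBS array for C1qa, C1qb, C1qc and C5ar1 and below for C1r. PBS array 4 (diamond) is the highest PBS array for the C1q chains, C3, both receptors and, by 0.04, C1r.

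The RNAs of the 3 C1q chains rose together, by 3.23-fold for C1qa, 3.88-fold for C1qb and 3.53-fold for C1qc. C1qa, the A chain, stood at 12.36, 12.22, 12.17 and 12.13 on the IL-4 arrays, against 10.18, 10.24, 10.18 and 11.52 on PBS arrays 1 to 4. The groups did not overlap, and the single high PBS value, on array 4, was still 0.61 below the lowest IL-4 value. IL-4 minus PBS was 1.69 log2 units (standard error, SE, 0.27, 95% interval 1.10 to 2.28, adjusted p = 0.0012).

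C1qb, the B chain, stood at 14.89, 14.89, 14.89 and 15.08 on the IL-4 arrays, against 12.67, 12.78, 12.49 and 13.98 on the PBS arrays. Its IL-4 values were nearly alike, and its PBS values again had their highest on array 4. IL-4 exceeded PBS by 1.96 log2 units (SE 0.27, 95% interval 1.36 to 2.55, adjusted p = 0.0006). C1qc, the C chain, stood at 12.20, 11.95, 12 and 11.90 on the IL-4 arrays, against 9.67, 10.11, 9.86 and 11.13 on the PBS arrays. Here too the groups were separate, with a gap of 0.77 between the lowest IL-4 and the highest PBS value. Its difference was 1.82 log2 units (SE 0.26, 95% interval 1.24 to 2.40, adjusted p = 0.00077). The 95% intervals of the 3 chains overlapped, and whether their rises differed from each other was not tested.

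Without PBS array 4 the differences of the chains were 2.02 for C1qa, 2.29 for C1qb and 2.13 for C1qc (highest adjusted p = 1.8e-05). With the 4 close-lying IL-4 arrays averaged to 1 sample, an alternative chosen after the values were seen, the log2 differences kept their size, but none of the 8 genes passed in limma (adjusted p = 0.14 to 0.17 for the chains), although 5 had an unadjusted p under 0.05. Over all probe sets 72 passed.

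Promoter sequence is shown for the A and B chains because their RNAs rose together. A RefSeq table on build GRCr8, another build than the rn6 of the array, held 5 of the 9 genes (C1qa, C1qb, C1r, C3 and C3ar1). The 250 bases before the annotated start are given 5′ to 3′ on the gene's strand, with matches to the motifs searched in capitals. The windows are chr5:154419934-154420183 for C1qa and chr5:154407828-154408077 for C1qb, both on the minus strand.
C1qa: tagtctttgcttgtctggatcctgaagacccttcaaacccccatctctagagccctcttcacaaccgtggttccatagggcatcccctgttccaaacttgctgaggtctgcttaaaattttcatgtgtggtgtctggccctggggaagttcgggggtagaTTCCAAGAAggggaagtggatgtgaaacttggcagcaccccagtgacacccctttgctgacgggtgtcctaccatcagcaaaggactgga
C1qb: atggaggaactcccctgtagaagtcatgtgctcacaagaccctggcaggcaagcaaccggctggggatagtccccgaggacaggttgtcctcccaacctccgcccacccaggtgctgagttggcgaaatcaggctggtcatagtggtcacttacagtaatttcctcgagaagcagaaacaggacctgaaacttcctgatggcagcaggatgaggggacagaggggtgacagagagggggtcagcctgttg
The motifs searched, on both strands, were TTCNNNNGAA (the spacing that STAT6, the main transcription factor activated by IL-4, prefers), TTCNNNGAA (that of other STAT proteins) and GAGGAAG (a core of sites of the myeloid factor PU.1). The only match among the 5 promoters, so that none overlapped another, was TTCCAAGAA in that of C1qa, which starts 90 bases before the annotated start and is of the form TTCNNNGAA. That form is present in 7.67% of 33469 rat promoters of the same length. TTCNNNNGAA is present in 6.25% of them and GAGGAAG in 10.2%. A match is a description of letters and not a measured site.

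The rise of the C1q chains was set beside the microglial list, since that cell type is the known source of C1q in brain. Of 18 measured microglial genes, 4 rose, 2 fell and 12 did not pass, with a median log2 difference of 0.20, beside 11.97% of all probe sets that rose and 19.7% that fell. Those that rose were Mrc1, the mannose receptor, by 3.25 on the log2 scale, Csf1r, the receptor of colony-stimulating factor 1, by 1.39, the ADP receptor P2ry12 by 1.35, and Aif1, which encodes the marker Iba1, by 1.01. Those that fell were the fractalkine receptor Cx3cr1, with a log2 difference of -1.46, and Tmem119, with -0.62 and means under 5 for both groups. Csf1r and P2ry12 overlapped between the groups through PBS array 4. The IL-4 arrays lay wholly above the PBS arrays for 2 of the 18 genes and wholly below for 4. The 4 include Gpr34, with -0.79, and Trem2, with -1.35, which did not pass. Over all probe sets the shares were 12.2% and 20.6%. Mrc1 is also known as a gene of the macrophage response to IL-4.

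Within each array, the C1q chains were higher relative to the mean of the 18 microglial genes with IL-4 than with PBS. The difference in log2 signal between chain and list changed by 1.46 for C1qa, 1.73 for C1qb and 1.59 for C1qc (IL-4 minus PBS). For C1qa the log2 signal minus the list mean was 2.78, 2.73, 2.71 and 2.62 on the IL-4 arrays, against 1.08, 1.34, 1.32 and 1.28 on the PBS arrays. PBS array 4 lay within the range of the other PBS arrays on this scale, although both C1qa and the list were highest there. All 4 IL-4 arrays lay above all 4 PBS arrays for each of the 3 chains (exact permutation test over 70 labelings, two-sided, p = 0.029, the smallest that 4 against 4 arrays allow, and also 0.029 after adjustment over the 3 chains). This ratio depends on which genes are in the list, and single microglial genes ran from Cx3cr1 to Mrc1 as given above. Each chain already separated the groups before the list was subtracted, so the permutation p adds little to that separation. The profiles of the 3 chains were alike, so their 3 tests are not independent results.

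**Figure D2:**
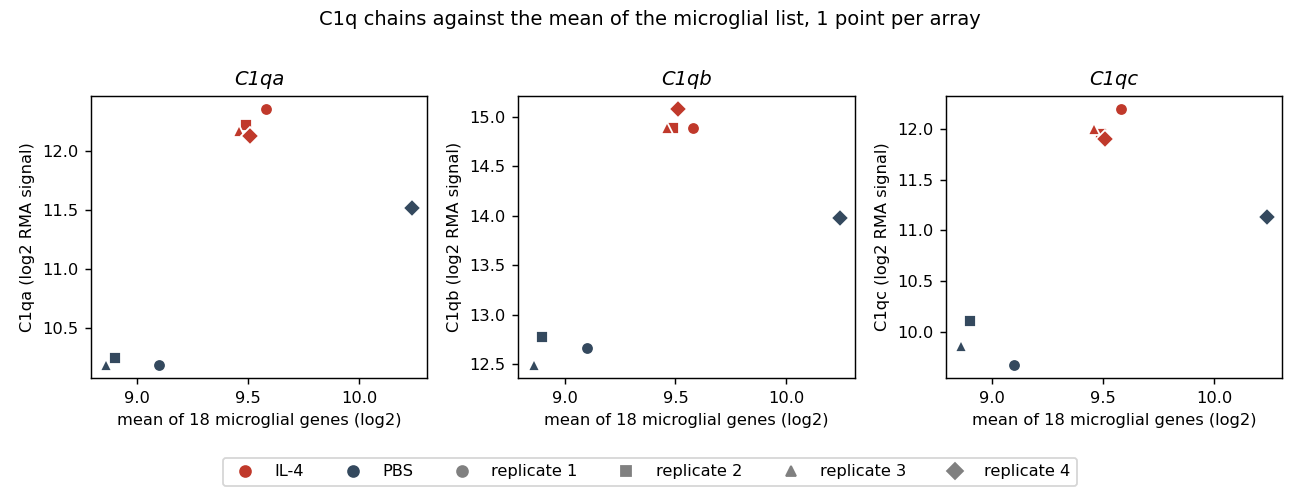
Log2 signal of each C1q chain (y axis) against the mean log2 signal of 18 microglial genes (x axis), 1 point per array, IL-4 in red and PBS dark. PBS array 4 has the highest list mean, 10.24, and its C1q signals are below those of every IL-4 array, whose list means lie between 9.46 and 9.58.

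**Figure D3:**
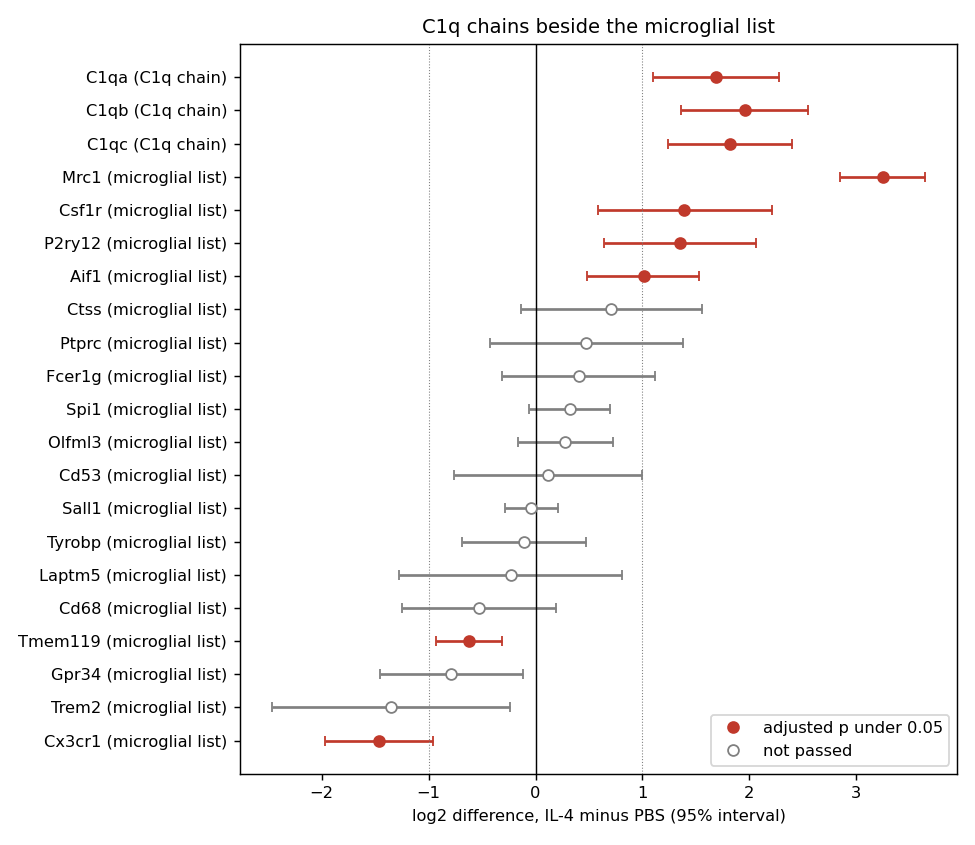
Log2 difference, IL-4 minus PBS (x axis), with its 95% interval for the 3 C1q chains and the 18 microglial genes, filled where the adjusted p was under 0.05. The C1q chains lie between 1.69 and 1.96, while the microglial genes run from -1.46 for Cx3cr1 to 3.25 for Mrc1.

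The proteases that C1q carries did not rise with it. C1r stood at 3.93, 4.04, 3.93 and 3.93 on the IL-4 arrays, against 4.52, 4.46, 4.54 and 4.58 on the PBS arrays. The groups were separate but all 8 values lay in the dim range, under the 95th percentile of the olfactory receptor genes. Limma gave a log2 difference of -0.57 (SE 0.10, 95% interval -0.79 to -0.35, adjusted p = 0.002), a fall by the test whose size cannot be read exactly at this level. Among the 1057 olfactory receptor genes, 155 rose and 121 fell by the same test, beside 11.97% and 19.7% of all probe sets. Genes in the dim range thus also pass this test, and a pass there does not show that the RNA was present. C1s stood at 4.19, 4.19, 4.67 and 4.14 on the IL-4 arrays, against 3.99, 3.79, 4.28 and 3.94 on the PBS arrays. These values overlapped and were equally dim, and the log2 difference of 0.30 (95% interval -0.04 to 0.63) did not pass (adjusted p = 0.16).

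C3, the component on which all pathways of complement converge, had 8.80, 8.27, 8.28 and 8.40 on the IL-4 arrays, against 7.14, 6.13, 7.07 and 9.02 on the PBS arrays. PBS array 4 exceeded every IL-4 array, by contrast with the C1q chains, and the other 3 PBS arrays lay below all IL-4 arrays. The log2 difference was 1.10 (SE 0.47, 95% interval 0.06 to 2.13, adjusted p = 0.096) and so did not pass. Without PBS array 4, which also had the highest microglial mean, it was 1.66 (adjusted p = 0.0014), and with array weights 1.17 (adjusted p = 0.028). The part of microglial or astrocyte RNA in this difference was not tested.

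Both receptors rose, and C5ar1 did so with less spread. C5ar1, the receptor for C5a, stood at 11.71, 11.64, 11.49 and 11.36 on the IL-4 arrays, against 10.88, 10.54, 10.48 and 11.01 on the PBS arrays. The groups were separate by 0.35, and PBS array 4 stood only 0.13 above the next PBS array. The rise was 0.82 on the log2 scale (SE 0.15, 95% interval 0.50 to 1.15, adjusted p = 0.0023), a change of 1.77-fold. C3ar1, the receptor for C3a, stood at 8.91, 8.92, 8.90 and 9.27 on the IL-4 arrays, against 7.56, 7.15, 7.76 and 9.14 on the PBS arrays. The IL-4 and PBS ranges overlapped through PBS array 4, which stood 1.38 above the next PBS array. The log2 difference was 1.10 (SE 0.34, 95% interval 0.35 to 1.85, adjusted p = 0.031). It was 1.51 without PBS array 4 (adjusted p = 0.00034), but leaving out any 1 of the other 7 arrays ended the call, with adjusted p between 0.059 and 0.079.

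Of 50 further complement genes listed, 38 were measured, and of these 10 rose, 5 fell and 23 did not pass, beside 11.97% of all probe sets that rose and 19.7% that fell. Their median log2 difference was 0.06. Of the 38, 15 had means under 5 in both groups, and 2 of these rose and 2 fell. The count of genes that rose was 10 without PBS array 4, but 5 without IL-4 array 2, 6 without IL-4 array 1, IL-4 array 4, PBS array 1 or PBS array 3, and 4 in the methods' t-test (a test per probe set that takes the variance of both groups as equal). The count that fell was 3 without IL-4 array 4.

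In the classical and lectin list 1 of 9 genes passed, a share close to that of all probe sets that rose. It was Fcna, which encodes a ficolin, a recognition molecule of the lectin pathway that plays the part C1q plays in the classical one. Fcna stood at 8.98, 9.52, 9.20 and 9.06 on the IL-4 arrays, against 7.10, 6.91, 6.97 and 7.88 on the PBS arrays. The groups did not overlap, and the log2 difference of 1.98 (SE 0.21, adjusted p = 0.00017) was close to that of C1qb. Of the alternative pathway only 2 genes were measured, and both rose, beside 11.97% of all probe sets. Cfd encodes factor D, the protease that cuts factor B, and stood at 6.14 ± 0.19 with IL-4 and 4.82 ± 0.48 with PBS (SD, n = 4 arrays each). Limma put the rise at 1.32 log2 units (adjusted p = 0.0014). Its PBS mean is under 5, so the size of the change is not exact, and PBS array 4, at 5.53, stood 0.85 above the next PBS array. Cfp encodes properdin, which stabilizes the convertase of that pathway, and rose by 0.56 on the log2 scale (adjusted p = 0.038), a call that 6 of the 8 omissions of an array ended. Cfp did not pass in the methods' t-test either (adjusted p = 0.1).

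Of 4 measured genes of the terminal pathway, only C8b, the beta chain of C8, passed, beside 19.7% of all probe sets that fell. Its log2 difference was -0.47 (adjusted p = 0.019), with both means under 5. The terminal genes were dim, apart from C8a at 5.89 with IL-4 and 5.75 with PBS.

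Of 13 regulators measured, 3 rose, 3 fell and 7 did not pass, beside the 11.97% and 19.7% of all probe sets, and 1 of each 3 had means under 5. Clu, which encodes clusterin, a secreted protein that binds the terminal complex, stood at 12.51, 12.55, 12.68 and 12.48 on the IL-4 arrays, against 11.26, 11.49, 10.95 and 10.83 on the PBS arrays. Unlike C1q and C3, Clu was lowest on PBS array 4 among the PBS arrays. Its log2 difference was 1.42 (SE 0.15, adjusted p = 0.00015). Cd59b, an inhibitor of the membrane attack complex held on the cell surface, rose by 1.03 on the log2 scale (SE 0.24, adjusted p = 0.0091, but 0.053 in the methods' t-test). On PBS array 4 Cd59b stood at 8.60, which was 1.02 above the next PBS array and 0.12 below the lowest IL-4 value. Cpn1, with means under 5, rose by 0.38. Cpn1 and C4bpb are named to complete the counts, after their values were seen. Csmd1, a membrane protein known to restrain complement, fell by 0.81 on the log2 scale (SE 0.19, adjusted p = 0.008). Serping1, the inhibitor of C1r and C1s, had a difference of like size, -0.82 (SE 0.27, adjusted p = 0.041), which lost the call when any of 6 arrays was left out. Its groups overlapped, and it did not pass in the methods' t-test (adjusted p = 0.13). C4bpb, with means under 5, had a difference of -0.55.

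Of 10 further receptors and binding partners, 4 rose, 1 fell and 5 did not pass. Among all probe sets 11.97% rose and 19.7% fell. Sirpa, which encodes a receptor of CD47 that restrains phagocytosis and does not bind complement itself, rose by 1.14 on the log2 scale (adjusted p = 0.01, but 0.06 in the methods' t-test). On PBS array 4 Sirpa stood at 15.49, which was 1.21 above the next PBS array and 0.02 below the lowest IL-4 value. C5ar2, the other C5a receptor, rose by 0.59 (adjusted p = 0.038), a call that the omission of any of 4 arrays ended, as did the methods' t-test (0.11). Its PBS mean of 5.06 lies in the dim range, under 5.41, so the size of this change is not exact. Cr2, the B cell receptor of C3 fragments, had a difference of 0.45 at means under 5 (adjusted p = 0.044), a call that 6 of the 8 omissions ended, as did array weights (0.073) and the methods' t-test (0.091). Calr, an endoplasmic reticulum chaperone that binds C1q, had a difference of 0.38 (adjusted p = 0.044). Lrp1, a scavenger receptor that takes up cells through calreticulin and C1q, had one of -0.54 (adjusted p = 0.015), which did not pass after quantile normalization (-0.38, adjusted p = 0.065). Of the chains of complement receptor 3, which binds fragments of C3, neither passed. Itgam, chosen after its values were seen, stood at 4.63, 4.82, 4.62 and 4.45 on the IL-4 arrays, against 6.28, 5, 4.73 and 7.11 on the PBS arrays (adjusted p = 0.062), with all 4 IL-4 values in the dim range, and Itgb2 had a log2 difference of 0.85 (adjusted p = 0.093).

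**Figure D4:**
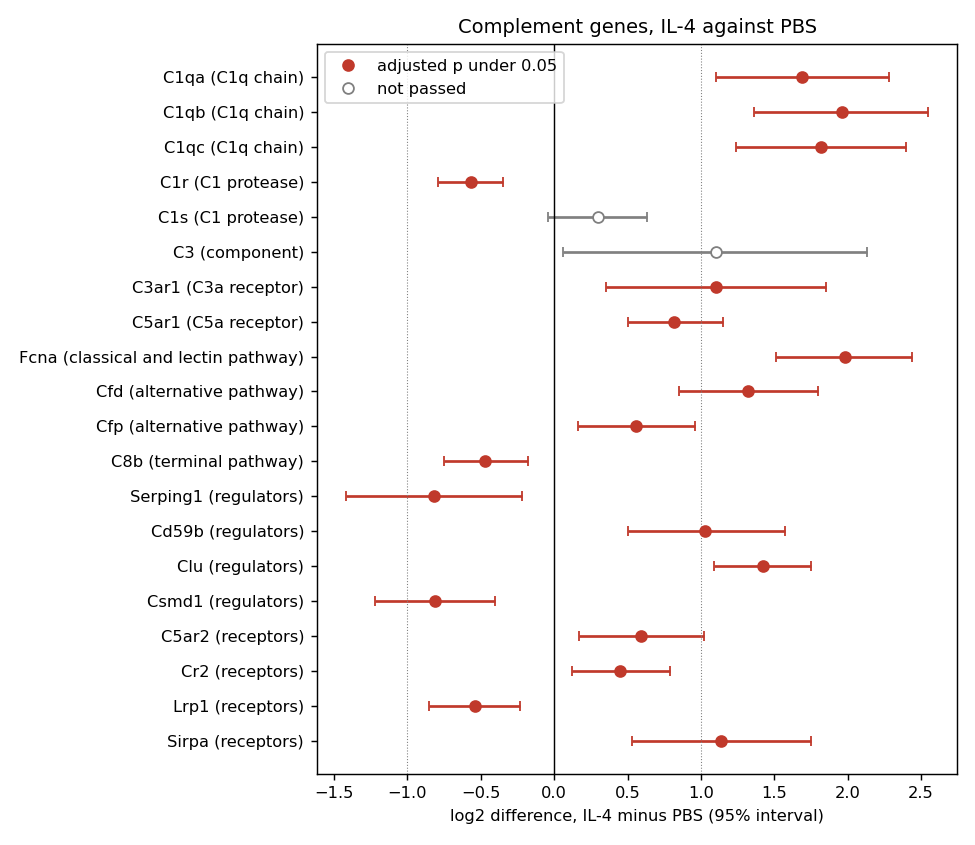
Log2 difference, IL-4 minus PBS (x axis), with its 95% interval for the 8 measured complement genes and 12 others named by rule, filled where the adjusted p was under 0.05, with dotted lines at a 2-fold change. The C1q chains, Fcna, Clu and Cfd lie highest, and C1r, C8b, Serping1, Csmd1 and Lrp1 lie below 0.

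The genes whose profiles over the 8 arrays were most like the mean of the C1q chains, by the root mean square difference of profiles centred on their own means, were Pecam1 (0.14), Smpdl3a (0.15), Ccnd1 (0.15), Bcl2a1 (0.18) and Il1rn (0.18, all in log2 units), out of 15029 genes. Pecam1 encodes an adhesion molecule of endothelium and leukocytes, Ccnd1 cyclin D1, Bcl2a1 an inhibitor of apoptosis and Il1rn the antagonist of the IL-1 receptor. All PBS values of Pecam1 and Il1rn lay in the dim range, under 5.41, so the size of their changes is not exact. The genes closest to the C1q chains were chosen for likeness on these same arrays. That each had IL-4 values above all PBS values and its highest PBS value on array 4 therefore follows from the choice. The chains themselves differed from each other by 0.12 to 0.18 on this measure. Prkcd (0.26), Tgfb1 (0.32) and Ms4a6bl1 (0.33) were closest to C3. They encode a protein kinase C, the cytokine TGF-beta 1 and a protein of the Ms4a family. Each, like C3, was highest on PBS array 4 of all 8 arrays, which again follows from the choice by likeness.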

How the data were processed

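RNA of 8 OPC samples was hybridized to Affymetrix Clariom S rat arrays, with 1 array for each sample. The authors deposited log2 signals for 23188 probe sets, made with Affymetrix Expression Console and RMA. Per the labels, Transcriptome Analysis Console 4.0 and build rn6 were used. Raw probe signals were not used here. Arrays have no sequencing depth, so that precision rests on the number of arrays and their spread.

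A single gene symbol was given by the array's probe table to 15049 probe sets (15037 symbols), and 8139 entered the tests unnamed. The brightest probe set stood for a gene, although every listed gene that was measured had only 1. The main test was limma 3.58.1 (R 4.3.3, lmFit with eBayes) of IL-4 minus PBS, with Benjamini-Hochberg adjustment over all probe sets. The 2 thresholds follow the study, adjusted p under 0.05 for a change and, in addition, more than 2-fold. Tested on simulated data with 23188 probe sets, the fit recovered 97 of 100 that had been changed 3-fold. It recovered 100 of 100 that had been changed 6-fold, and called 17 unchanged ones. The simulated noise was normal, with the same spread in both groups and no outlying array. Far fewer probe sets were changed than were called on the real arrays. The simulation therefore checks the code and does not measure error rates on these arrays. Summaries and figures used Python 3.11.15 and pandas 2.3.3.

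The genes, lists and tests were chosen with earlier results of these data known. Beside the complement genes, up to 4 of largest change that passed in each further complement list were named by rule. Calr, C8a, Itgb2, Itgam, Cpn1 and C4bpb were named outside this rule. The closest profiles and genes of described cell type lists were also named. The 7 cell type lists were microglia, astrocytes, fibroblasts and pericytes, endothelium, neurons, OPCs and mature oligodendrocytes. Alternatives were quantile normalization, subtraction of array medians, a filter at the 40th percentile of mean signal, a robust prior with an intensity trend, array weights, the replicate block, the methods' t-test, omission of each array, the median of the microglial list and, added after the values were seen, the IL-4 arrays averaged. Of the lists other than the microglial one, astrocytes had 2 genes that rose and 3 that fell of 8. Fibroblasts and pericytes had 1 and 3 of 8, endothelium 1 and 1 of 6, and neurons 0 and 2 of 6. OPCs had 0 and 1 of 7, and mature oligodendrocytes 3 and 0 of 5. Among all probe sets 11.97% rose and 19.7% fell.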

Additional observations from a re-analysis of the deposited data

Results flagged for a closer look

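In 7 of 54 groups of 4 arrays examined, the highest or lowest array stood apart from the other 3 by more of the range than the 95% critical value of Dixon's test. Chance gives about 1 in 20 for independent normal values. Genes on the same arrays are not independent, so the count does not test for an excess. C1qa on PBS array 4 had a gap of 0.955 of the range, at a level of 11.52. On the IL-4 arrays the gaps were 1.000 for C1qb on array 4, at 15.08, and 1.000 for C1r on array 2, at 4.04. In both cases the other 3 values were tied, which gives 1.000 whatever the size of the step. They were 0.906 for C1s on array 3, at 4.67, 0.946 for C3ar1 on array 4, at 9.27, and 0.944 for Cd59b on array 3, at 8.90. The mean of the fibroblast and pericyte list had a gap of 0.922 on IL-4 array 4, at 4.77. Among the IL-4 arrays the SD of these 5 genes was 0.06 to 0.25 log2 units, and that of C1qa among the PBS arrays was 0.66.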

How the results depend on the processing

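Rises of the 3 C1q chains and C5ar1 and the fall of C1r kept their direction and passed under each alternative in which they were fitted except the averaging of the IL-4 arrays, and the filter on dim probe sets left out C1r and C1s. Leaving out 1 array at a time, the differences ran from 1.57 to 2.02 for C1qa, 1.79 to 2.29 for C1qb, 1.65 to 2.13 for C1qc, 0.69 to 1.66 for C3, 0.85 to 1.51 for C3ar1, 0.74 to 0.92 for C5ar1, 0.17 to 0.39 for C1s and -0.59 to -0.55 for C1r. C3 passed only without PBS array 4 and with array weights (1.17, adjusted p = 0.028), and C3ar1 did not pass in the methods' t-test (1.10, adjusted p = 0.12). In that test 4 further complement genes rose, against 10 in limma, and with an array left out 5 to 10 rose and 3 to 6 fell (5 rose without IL-4 array 2, 6 rose without IL-4 array 1, IL-4 array 4, PBS array 1 or PBS array 3, and 3 fell without IL-4 array 4), while of the 8 genes 4 to 6 rose and 1 fell. With the filter on dim probe sets, 0 of the 8 genes and 3 of the further genes fell, as it takes out dim genes, C1r among them. The shares over all probe sets depend on normalization. In the main fit 2776 probe sets rose and 4563 fell, and after quantile normalization 3279 rose and 3582 fell. With the IL-4 arrays averaged to 1 sample, whose spread is then assumed to be that of the PBS arrays, 0 of the 8 genes and 0 of the further genes passed in limma (1.69 for C1qa, adjusted p = 0.17, 1.96 for C1qb, 0.14, 1.82 for C1qc, 0.15, -0.57 for C1r, 0.23, 1.10 for C3ar1, 0.43, and 0.82 for C5ar1, 0.2). At an unadjusted p under 0.05 there were 5 of the 8 and 4 of the 38. The log2 differences are the same by construction, and fewer samples enter. The rise of the chains beyond the microglial list ran from 1.40 to 1.49 for C1qa, 1.68 to 1.78 for C1qb and 1.47 to 1.69 for C1qc with an array left out, and it passed with the median of the list.

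The replicate numbers did not pair the cultures by any likeness of their deviations, with correlations of -0.0185 to 0.00591 for the same number. With the replicate block 5 of the 8 genes rose and 1 fell, as without it, and 7 of the further complement genes rose, against 10, with C5ar2 (0.59, adjusted p = 0.064) among those that lost the call. The dimmest probe set per gene was not run, since each listed gene had 1 probe set.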
